A study of Mus musculus with 8 samples.

Results

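The genes described here encode the subunits of integrins and the chains of laminins. They were chosen by symbol alone, as every named gene called Itga with a suffix, Itgb1 to Itgb8, or Lama, Lamb or Lamc with a digit. This gave 36 genes among the 24675 named genes of the array: 18 integrin alpha subunits, 8 integrin beta subunits and 10 laminin chains. Array entries without a symbol in the platform table were not analysed here, so the laminin chains and trimers described are those that carry one and not the whole family. Their RNA was compared between ventral tissue, taken from beneath the dorsal aorta, and dorsal tissue, lying between the aortic roof and the notochord. Both came by laser microdissection of cryosections from C57Bl/6 mouse embryos at embryonic day 12.5, with no genetic change or treatment named in the labels, and the Affymetrix mouse Gene 2.0 ST array was used for 4 biological replicates of each, numbered 1 to 4. The labels state that both tissues were cut from the same embryos, but not how many embryos a replicate number stands for, so a p-value here weighs a difference against the variation among these samples alone.

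Integrins are receptors that span the cell membrane as a pair of an alpha and a beta subunit. The alpha subunit largely sets which ligand is held: collagens, laminins, proteins with the RGD tripeptide such as fibronectin, or counter-receptors on other cells. The beta subunit carries most contacts to the actin cytoskeleton through talin and kindlin. Laminins are trimers of an alpha, a beta and a gamma chain that polymerise into the sheet on which basement membranes are built, under epithelia and endothelia and around muscle and nerve. In the vessel wall, laminins with the alpha 4 or alpha 5 chain form the membrane under the endothelium.

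The upstream sequence of 3 genes is shown, although none of them passed the adjusted test: Lamb1 as the tested gene whose ventral and dorsal values did not overlap, Itga3 and Itga11 as those with the smallest p-value in each direction among the genes tested. Each is the 250 bases 5′ of the annotated start, from RefSeq on GRCm38.p6, and capitals mark a GC box (GGGCGG) or a CCAAT box on either strand. They lie at chr12:31265043-31265292 on the plus strand for Lamb1, chr11:95076715-95076964 on the minus strand for Itga3, and chr9:62677605-62677854 on the plus strand for Itga11.
Lamb1: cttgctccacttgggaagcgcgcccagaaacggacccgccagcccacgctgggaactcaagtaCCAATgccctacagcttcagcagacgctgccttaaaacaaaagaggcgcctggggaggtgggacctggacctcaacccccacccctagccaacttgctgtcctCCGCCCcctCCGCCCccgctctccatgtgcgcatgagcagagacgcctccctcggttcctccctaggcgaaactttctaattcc
Itga3: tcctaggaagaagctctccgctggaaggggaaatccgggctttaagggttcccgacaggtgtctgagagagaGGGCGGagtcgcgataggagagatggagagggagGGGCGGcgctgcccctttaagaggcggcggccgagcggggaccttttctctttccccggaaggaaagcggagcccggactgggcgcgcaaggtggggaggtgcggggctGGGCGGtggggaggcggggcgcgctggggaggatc
Itga11: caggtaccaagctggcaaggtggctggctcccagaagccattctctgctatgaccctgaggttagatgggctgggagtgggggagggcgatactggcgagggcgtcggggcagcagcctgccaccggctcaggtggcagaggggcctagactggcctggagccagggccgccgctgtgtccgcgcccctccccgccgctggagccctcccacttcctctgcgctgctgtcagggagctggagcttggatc
The Lamb1 window held 2 GC boxes and 1 CCAAT box, and the Itga3 window, taken at the farther 5′ of 2 listed starts, held 3 GC boxes. Neither motif, nor TATAAA, was found in the Itga11 window. Of all 32851 upstream windows in the same table, 32.7% held a GC box, 33.8% a CCAAT box and 12.4% TATAAA. Of the 36 genes, 23 had a window, and 8 of these held a GC box in at least 1 listed window, 4 a CCAAT box and 0 TATAAA. A match describes letters in a window and says nothing about a factor bound there.

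Marker levels set the frame for the comparison. The mean over 16 sclerotome and cartilage genes was 4.46 to 4.71 (log2 intensity) on the ventral arrays and 5.59 to 6.74 on the dorsal arrays. Smooth muscle genes averaged 4.94 to 5.97 in ventral and 4.58 to 4.996 in dorsal tissue, and macrophage genes 4.98 to 5.64 in ventral and 4.51 to 4.96 in dorsal tissue. Endothelial genes averaged 4.66 to 5.05 in ventral and 4.14 to 5.17 in dorsal tissue, the lowest value being dorsal replicate 4. Some arrays stood apart on other lists. Liver genes averaged 5.73 on ventral replicate 4 and 7.44 on dorsal replicate 4, against 3.23 to 3.37 on the other 6 arrays. Neural genes averaged 4.94 on dorsal replicate 1, against 3.51 to 3.72 on the other dorsal arrays. Sympathoadrenal genes averaged 7.24 on ventral replicate 1 and 6.19 on ventral replicate 3, against 4.71 and 5.30 on the other ventral arrays and 4.59 to 5.14 on the dorsal arrays. In bulk tissue, fewer cells of a type and less RNA per cell cannot be told apart, here or in any result below.

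Of the 36 genes, 22 exceeded the array median on 4 or more of the 8 arrays and were tested, and 14 did not. No integrin or laminin gene differed between the tissues at an adjusted p under 0.05 in limma's moderated test with the replicate number as a block, and 0% of all 12416 genes tested did. The differences, ventral minus dorsal on the log2 scale, ran from -0.60 for Itga11 to 0.63 for Itgb8. At an unadjusted p under 0.05 stood 3 genes, of which 2 were higher in ventral tissue (Itga3 and Lama4) and 1 was lower (Itga11). Over all genes tested, 4.08% were higher and 4.18% lower at that level. The number was 4 without replicate number 1 and 2 without replicate number 4, the number whose arrays carried the liver genes. The part of liver tissue in these counts was not tested.

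The point estimate was above 0 for 17 and below 0 for 5 of the 22 genes, with a median difference of 0.16, while over all genes tested 6112 were above and 6304 below 0, with a median of -0.0039. The count and median include Itga8 (0.25) and Itgb3 (0.33), each above the array median on 3 ventral arrays and 1 dorsal array. Passing the filter mainly through ventral arrays favours an estimate above 0. Itgb4 (-0.15) and Itga4 (-0.12) were above the array median on more dorsal than ventral arrays. By replicate number, the median over the 22 genes was 0.11 in number 1, 0.19 in number 2, 0.22 in number 3 and -0.055 in number 4. The 15 integrin subunits tested had a lower median, 0.049, than the 7 laminin chains, 0.27, with 11 and 6 genes above 0. For the integrin subunits the median was -0.048, 0.16, 0.050 and -0.081 in numbers 1 to 4. The median absolute difference over the 22 genes was 0.19, close to the median standard error of 0.19. Over all genes tested these were 0.16 and 0.19. Lamb1 was the only tested member whose 4 ventral values all lay above its 4 dorsal values, and 0 lay wholly below, against 2.01% above and 2.38% below among all genes tested. Itga2, Itga3, Lama4 and Lamb1 were higher in ventral tissue in 4 of 4 replicate numbers, where 7.92% of all genes tested were. Itga11 and Itgb4 were lower in 4 of 4, where 8.46% of all genes tested were.

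**Figure D1:**
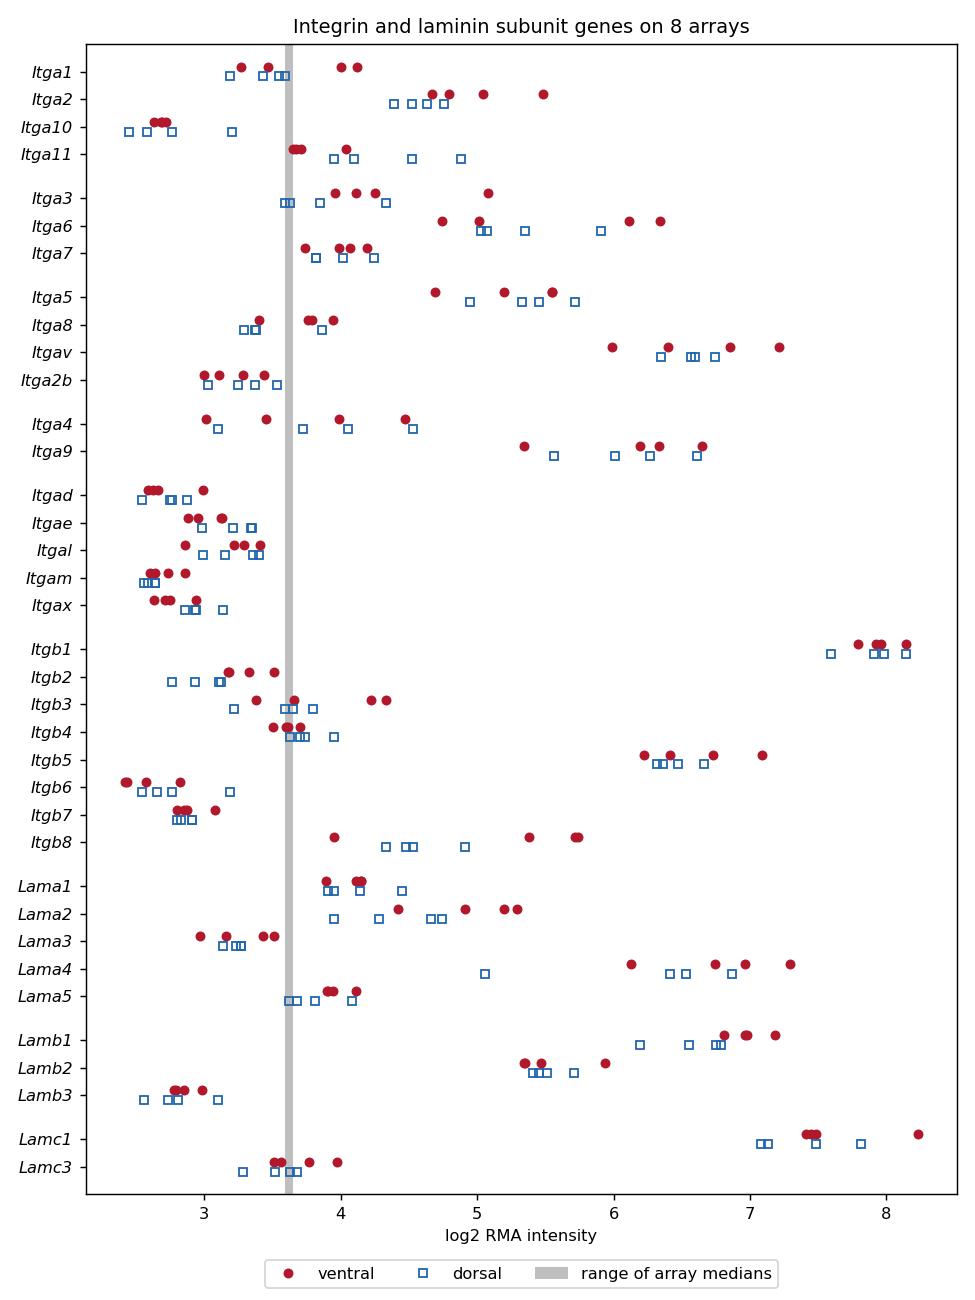
Log2 RMA intensity (x axis) of the 36 genes (y axis, grouped by role) on the 4 ventral arrays (filled circles) and the 4 dorsal arrays (open squares), with the range of the array medians, 3.59 to 3.65, as a grey band. Circles and squares overlap for every gene but Lamb1 and Itgb2, and 12 genes, among them all 5 leukocyte alpha subunits, lie left of the band on all 8 arrays.

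**Figure D2:**
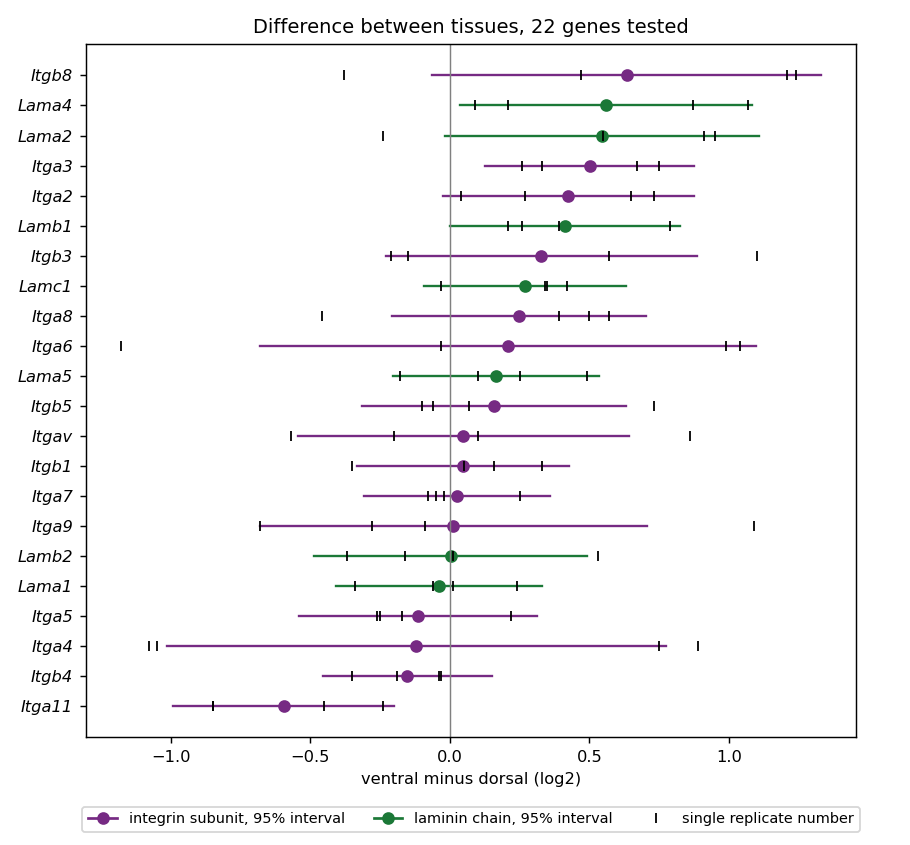
Ventral minus dorsal difference (log2, x axis) of the 22 genes tested, with the 95% interval of the blocked limma fit as a line and each replicate number's own difference as a tick. The intervals of Itga3, Lama4 and Itga11 leave out 0 before any adjustment, and 17 of the 22 points lie right of 0. Among the points right of 0, Itga8 and Itgb3 passed the filter mainly through ventral arrays.

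Of the laminin alpha chains, 4 were tested and 0 passed. Lama4, the alpha chain of endothelial and smooth muscle basement membranes, stood at 6.74, 6.96, 7.29 and 6.13 on the ventral arrays of numbers 1 to 4, against 6.53, 6.87, 6.41 and 5.06 on the dorsal arrays. The tissues overlapped, and in both the array of number 4 was the lowest, with dorsal replicate 4 far under the rest. The difference was 0.56 (SE 0.22), or 1.47-fold, with an adjusted p of 0.578 in limma and an unadjusted p of 0.0388. Without the replicate block the unadjusted p was 0.18, and when dorsal replicate 4 alone was also left out the difference was 0.17. That array also had the lowest mean of the endothelial markers (4.14), and the part of this in the Lama4 result was not tested.

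Lama2, the alpha chain of muscle and peripheral nerve laminins, averaged 4.95 ± 0.39 in ventral and 4.41 ± 0.36 in dorsal tissue (SD, n = 4). Its difference was 0.54 (SE 0.24, adjusted p = 0.617 in limma), negative in number 1 (-0.24) and 0.55, 0.91 and 0.95 in numbers 2 to 4. Without replicate number 1, the number with the high neural genes on its dorsal array and the high sympathoadrenal genes on its ventral array, the difference was 0.81 with an unadjusted p of 0.00703. It was 0.54 without number 2 (unadjusted p = 0.118), 0.42 without number 3 (0.192) and 0.41 without number 4 (0.191). Ventral replicate 3 also had high sympathoadrenal genes (6.19), and number 3 gave a Lama2 difference of 0.91. The part of neural or sympathoadrenal tissue in the Lama2 values was not tested. Lama5, the alpha chain of epithelial and mature vessel basement membranes, averaged 3.96 ± 0.10 in ventral and 3.80 ± 0.20 in dorsal tissue (SD, n = 4). Lama1, the alpha chain of the earliest embryonic basement membranes, averaged 4.07 ± 0.13 in ventral and 4.11 ± 0.24 in dorsal tissue (SD, n = 4). The differences of Lama5 (0.16, 95% interval -0.21 to 0.53) and Lama1 (-0.039, 95% interval -0.41 to 0.33) were within their error. Lama3, the alpha chain of skin-type hemidesmosomal laminin, was under the array median on all 8 arrays.

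Lamb1, a beta chain shared by most embryonic laminins, stood at 6.81, 7.18, 6.96 and 6.98 on the ventral arrays of numbers 1 to 4, against 6.55, 6.79, 6.75 and 6.19 on the dorsal arrays. Every ventral value exceeded every dorsal value, though the lowest ventral (6.81) and the highest dorsal (6.79) nearly met. The difference was 0.41 (SE 0.17), or 1.33-fold, and did not pass the test (adjusted p = 0.602 in limma, unadjusted p = 0.0501). Its unadjusted p was 0.0415 without the replicate block and 0.0445 after quantile normalization, against 0.162 without replicate number 4. The difference ranged from 0.29 to 0.48, the lowest being that without the block and dorsal replicate 4 (unadjusted p = 0.108). Lamb2, the beta chain of neuromuscular and mature vessel laminins, differed by 0.0035 (95% interval -0.49 to 0.49). Lamb3, the beta chain of hemidesmosomal laminin, was under the median on all 8 arrays.

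Lamc1, the gamma chain of most laminins, stood at 7.41, 8.23, 7.48 and 7.45 on the ventral arrays of numbers 1 to 4, against 7.08, 7.81, 7.13 and 7.48 on the dorsal arrays. The array of number 2 was the highest in both tissues, and the tissues overlapped. The difference was 0.27 (SE 0.15, adjusted p = 0.731 in limma), or 0.074 without the block when ventral replicate 2 was left out. Lamc3 was above the median on 2 of 4 ventral and 1 of 4 dorsal arrays and was not tested. Of the 7 laminin chains tested, 6 had a point estimate above 0, with a median of 0.27 and with 1 at an unadjusted p under 0.05, higher in ventral tissue. Over all genes tested, 4.08% were higher and 4.18% lower at that level. By replicate number the median over these chains was 0.21, 0.39, 0.35 and -0.028 in numbers 1 to 4.

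**Figure D3:**
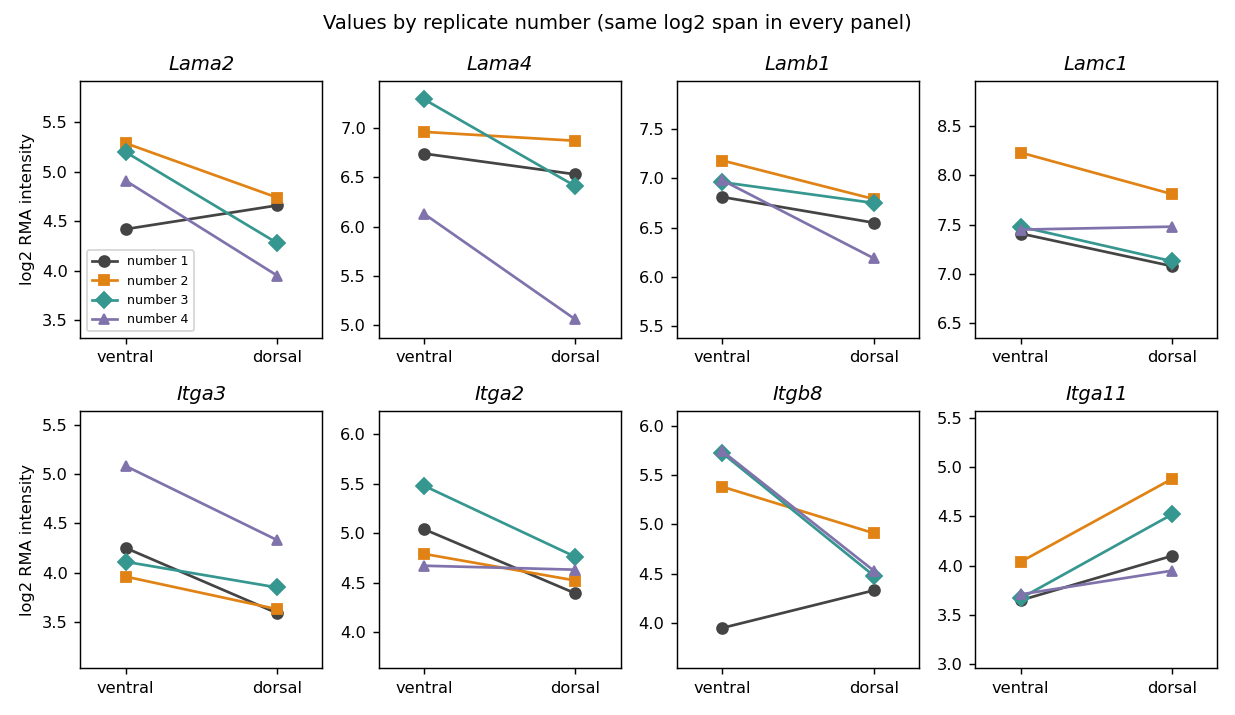
Log2 RMA intensity (y axis, with the same span in every panel) of 8 genes on the ventral and dorsal array of each replicate number, joined by a line. Lamb1, Lama4, Itga3 and Itga2 slope down from ventral to dorsal in all 4 numbers and Itga11 slopes up in all 4, while number 1 runs against the other numbers for Lama2 and Itgb8.

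The alpha subunits that bind laminin had point estimates above 0 for 3 of 3. Itga3, the partner of Itgb1 in a laminin receptor of epithelia, stood at 4.25, 3.96, 4.11 and 5.08 on the ventral arrays of numbers 1 to 4, against 3.59, 3.63, 3.85 and 4.33 on the dorsal arrays. Number 4 was the highest in both tissues, and dorsal replicate 4 exceeded 3 ventral arrays. The difference was 0.50 (SE 0.16), or 1.42-fold, with an adjusted p of 0.448 in limma and an unadjusted p of 0.0156. Without the replicate block the unadjusted p was 0.0856, and when ventral replicate 4 alone was also left out the difference was 0.26. Dorsal replicate 4 was also the highest array for the epithelial markers, at 4.35, against 3.77 to 4.10 on the ventral and 3.70 to 3.83 on the other dorsal arrays, while the means of that list over the tissues were 3.94 in ventral and 3.91 in dorsal. The mean of the mesothelial and coelomic epithelial markers was 4.48, 5.16, 4.30 and 5.06 on the ventral arrays of numbers 1 to 4. On the dorsal arrays it was 3.96, 3.95, 3.90 and 4.76, so the mean was higher in ventral tissue in every number, as was Itga3. Single markers did not all follow this mean. Of 8 tested, 6 had a point estimate above 0 and 2 below, and 2 were higher in ventral tissue in 4 of 4 numbers. The largest difference was that of Tcf21, at 3.30. In number 4, Tcf21 stood at 8.01 in ventral and 3.80 in dorsal tissue, and Upk3b at 4.22 and 7.57. The part of either list's tissue in the Itga3 values was not tested.

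Itga6, which joins Itgb1 or the hemidesmosomal Itgb4, had values of 4.74 to 6.34 in ventral and 5.03 to 5.91 in dorsal tissue. Its replicate numbers disagreed, with 0.99 in number 1, -1.18 in number 2, 1.04 in number 3 and -0.03 in number 4, so that the difference of 0.21 had an SE of 0.38. Itga7, the laminin receptor alpha subunit of muscle, differed by 0.026 (95% interval -0.31 to 0.36).

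Among the collagen receptors, Itga11 and Itga2 were tested and had point estimates of opposite sign, neither passing the test. Itga11, a receptor subunit for fibrillar collagens in mesenchyme, stood at 3.65, 4.04, 3.67 and 3.71 on the ventral arrays of numbers 1 to 4, against 4.10, 4.88, 4.52 and 3.95 on the dorsal arrays. Only ventral replicate 2 and dorsal replicate 4 crossed. The other 3 ventral values lay within 0.1 of their array medians, where array background can compress a difference. The difference was -0.60 (SE 0.17), or 0.662-fold, with an adjusted p of 0.38 in limma and an unadjusted p of 0.00913, which put it at rank 298 of 12416 genes. It ranged from -0.73 to -0.42 over all alternatives, and without the block its unadjusted p was 0.0183. The dorsal arrays with the higher Itga11 values, numbers 2 and 3, also had the higher means of the sclerotome and cartilage markers (6.74 and 6.44, against 5.63 and 5.59 in numbers 1 and 4). The part of those markers' tissue in the Itga11 difference was not tested.

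Itga2, a collagen and laminin receptor of platelets and epithelia, averaged 4.996 ± 0.36 in ventral and 4.57 ± 0.16 in dorsal tissue (SD, n = 4), a difference of 0.42 (SE 0.19, adjusted p = 0.625 in limma). Its own difference was 0.65, 0.27, 0.73 and 0.04 in numbers 1 to 4. Itga1, its next protein-coding neighbour on chromosome 13 in RefSeq, exceeded the median on 2 of 4 ventral arrays (4.00 in replicate 1 and 4.12 in replicate 3) and on 0 of 4 dorsal arrays, and was not tested. The same 2 ventral arrays, replicates 1 and 3, were the highest of the 4 for Itga2. The dorsal arrays showed no such match, since dorsal replicate 1 was the highest for Itga1 (3.59) and the lowest for Itga2 (4.39). Ventral replicates 1 and 3 also had the high sympathoadrenal genes (7.24 and 6.19). The part of that tissue in Itga1 or Itga2 was not tested. Itga10, a collagen receptor subunit of cartilage, was under the median on all 8 arrays, at 2.63 to 2.72 in ventral and 2.45 to 3.20 in dorsal tissue, although the dorsal tissue carried the sclerotome and cartilage markers.

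Of the alpha subunits that bind fibronectin and other RGD proteins, 3 were tested and 0 passed the adjusted threshold. Itga5, the main fibronectin receptor subunit, differed by -0.11 (95% interval -0.54 to 0.31) and Itgav, which pairs with several beta subunits, by 0.049 (95% interval -0.54 to 0.64). Itgav spread more in ventral (5.99 to 7.21) than in dorsal tissue (6.35 to 6.74), but the difference in spread was not tested. Itga8, a receptor subunit of smooth muscle and kidney mesenchyme, averaged 3.73 ± 0.23 in ventral and 3.48 ± 0.26 in dorsal tissue (SD, n = 4), near the array median, with a difference of 0.25 (SE 0.19). It was above the median on 3 ventral arrays and 1 dorsal array, so its place among the genes tested rested mainly on ventral tissue. Itga2b, the platelet alpha subunit, was under the median on all 8 arrays.

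Itga9, a receptor subunit for tenascin and for lymphatic vessel matrix, averaged 6.12 ± 0.56 in ventral and 6.11 ± 0.44 in dorsal tissue (SD, n = 4), a difference of 0.012 (95% interval -0.68 to 0.71). Number 4 gave 1.09 and numbers 1 to 3 gave -0.68, -0.09 and -0.28. Itga4, the VCAM-1 and fibronectin receptor subunit of blood cells and neural crest, ranged from 3.01 to 4.47 in ventral and from 3.10 to 4.53 in dorsal tissue. Its replicate numbers split, with 0.75 and 0.89 in numbers 1 and 3 and -1.05 and -1.08 in numbers 2 and 4, which gave a difference of -0.12 (SE 0.38). Ventral replicates 1 and 3, its higher ventral arrays, were those with the high sympathoadrenal genes (7.24 and 6.19), and Itga6 was also higher there (6.34 and 6.11). The dorsal arrays showed no such match, since Itga4 was highest on dorsal replicate 4 (4.53) and Itga6 on dorsal replicate 2 (5.91), where the sympathoadrenal means were 5.01 and 5.04, against 5.14 on dorsal replicate 1. The part of sympathoadrenal tissue in either gene was not tested.

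Itgb1, the beta subunit of the largest integrin family, stood at 7.92, 8.14, 7.96 and 7.79 on the ventral arrays of numbers 1 to 4, against 7.59, 7.98, 7.91 and 8.14 on the dorsal arrays. The tissues overlapped throughout, with a difference of 0.047 (SE 0.16, adjusted p = 0.971 in limma) and a 95% interval of 0.794- to 1.34-fold. Itgb5, a partner of Itgav, differed by 0.16 (95% interval -0.32 to 0.63). Itgb8, a partner of Itgav that helps to release active TGF-beta, had the widest point estimate of the tested members, 0.63 (SE 0.30, adjusted p = 0.646 in limma). Its values were 3.95, 5.38, 5.72 and 5.74 on the ventral arrays of numbers 1 to 4, against 4.33, 4.91, 4.48 and 4.53 on the dorsal arrays. Numbers 2 to 4 were higher in ventral tissue and number 1 was lower, and the estimate depended on which was kept. With 1 replicate number left out it was 0.97 without number 1 (unadjusted p = 0.00611), 0.69 without number 2 (0.111), 0.43 without number 3 (0.248) and 0.44 without number 4 (0.235).

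Itgb3, a platelet and vascular partner of Itgav, averaged 3.90 ± 0.45 in ventral and 3.57 ± 0.25 in dorsal tissue (SD, n = 4). Like Itga8, it was above the median on 3 ventral arrays and 1 dorsal array, so that it was tested mainly through ventral tissue. Its ventral values of 4.33 in replicate 1 and 4.22 in replicate 4 stood above the rest, and ventral replicate 1 also had the highest mean of the megakaryocyte and platelet markers (5.11, against 3.92 to 4.10 on the other ventral arrays and 3.69 to 4.40 on the dorsal arrays). On ventral replicate 4 the platelet mean was 4.10, and on dorsal replicate 4, where Itgb3 stood at 3.65, it was 4.40. The part of platelet RNA in Itgb3 was not tested. Itgb4, the hemidesmosomal beta subunit, differed by -0.15 (95% interval -0.46 to 0.15), with values of 3.50 to 3.70 in ventral and 3.63 to 3.95 in dorsal tissue that lay close to the array medians. Itgb6, of epithelia, and Itgb7, of lymphocytes, were under the median on all 8 arrays.

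Leukocyte integrins gave low signals throughout. Itgad, Itgae, Itgal, Itgam and Itgax, the alpha subunits of lymphoid and myeloid cells, were under the array median on all 8 arrays. So was Itgb2, the beta partner of these subunits except Itgae, which pairs with Itgb7. Of the 12 macrophage markers with a value, 11 lay above the array median on all 4 ventral and 7 on all 4 dorsal arrays. Itgb2 stood at 3.17, 3.51, 3.18 and 3.33 on the ventral arrays of numbers 1 to 4, against 2.93, 2.76, 3.12 and 3.11 on the dorsal arrays. These values did not overlap, but no fold is given for values under the array medians. Itgam, the classical macrophage subunit, stood at 2.60 to 2.86 in ventral and 2.56 to 2.64 in dorsal tissue. T cell markers averaged 2.81 to 2.97 in ventral and 2.81 to 2.90 in dorsal tissue.

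**Figure D4:**
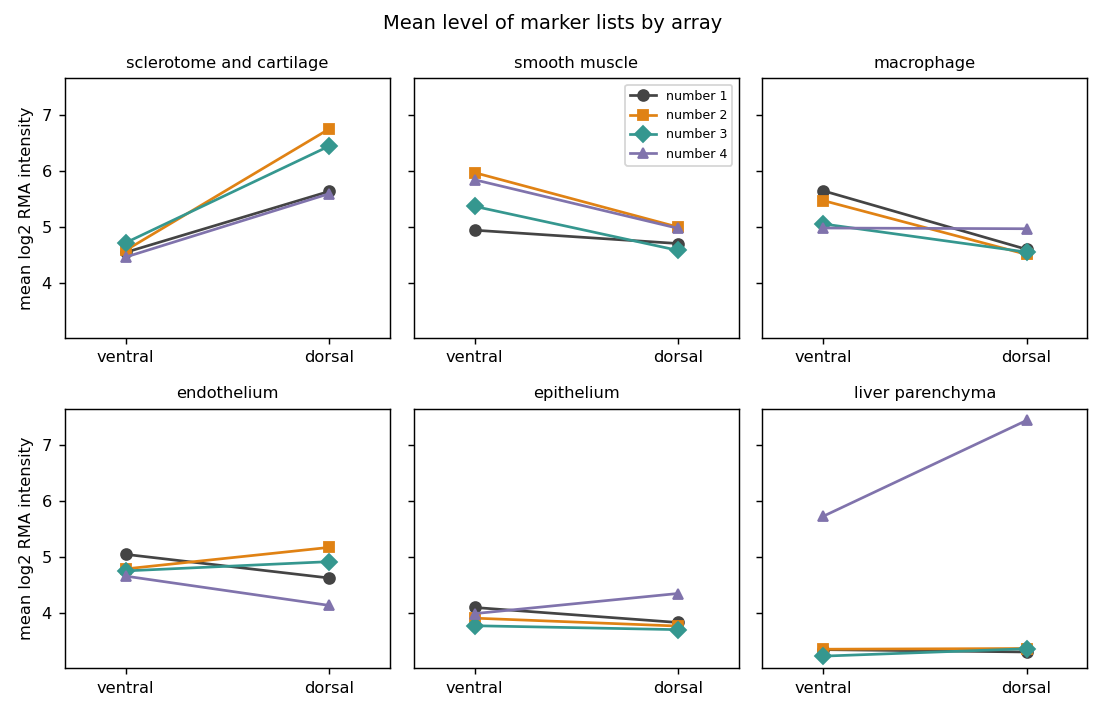
Mean log2 RMA intensity (y axis) of 6 marker lists on the ventral and dorsal array of each replicate number, joined by a line. The sclerotome and cartilage list is higher on all 4 dorsal arrays, the endothelial list is lowest on dorsal replicate 4 (4.14), and the liver list is raised on both arrays of number 4 (5.73 and 7.44).

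Known receptor pairs were set side by side by the differences of their subunits, since levels of different genes on an array cannot be compared. Of 24 textbook integrin pairs, 14 had both subunits tested. In each tissue 10 pairs had both subunits above the array median on all 4 arrays. The pairs that differed in this were Itga3 with Itgb1, met in ventral tissue alone because dorsal replicate 1 read 3.59 against an array median of 3.61, and Itga6 with Itgb4, met in dorsal tissue alone. For Itga3 (0.50), Itga2 (0.42) and Itga11 (-0.60), the common partner Itgb1 differed by 0.047. Both subunits were higher in ventral tissue in 3 of 4 replicate numbers for Itga2 with Itgb1 and for Itga3 with Itgb1, and in 0 of 4 for Itga11 with Itgb1. In the Itgav pairs, Itgb8 differed by 0.63, Itgb3 by 0.33 and Itgb5 by 0.16, against 0.049 for Itgav itself, and Itgav and Itgb8 were both higher in 2 of 4 numbers.

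Of 12 textbook laminin trimers whose chains all have a symbol here, 7 had all 3 chains tested, and these 7 had every chain above the median on all arrays of both tissues: laminin 111, 211, 221, 411, 421, 511 and 521. All 3 chains were higher in ventral tissue in 3 of 4 replicate numbers for laminin 411 and 511 and in 2 of 4 for the other 5. The trimers share Lamb1 or Lamb2 and all share Lamc1, so these counts are not independent. In number 4, Lamc1 was lower in ventral tissue by 0.03 and all 7 counts miss that number.

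Genes that act with these subunits were read from lists drawn from textbook knowledge, and 0 passed the adjusted threshold. Among adaptors that link integrins to actin, 14 of 27 tested genes had a point estimate above 0 (median 0.037), and 2 were at an unadjusted p under 0.05, both higher in ventral tissue. Over all genes tested, 4.08% were higher and 4.18% lower at that level. Rap1b, a small GTPase that promotes integrin activation, averaged 8.47 ± 0.18 in ventral and 7.82 ± 0.31 in dorsal tissue (SD, n = 4), a difference of 0.65 (SE 0.17, adjusted p = 0.34 in limma). Tln2, a talin that binds beta subunit tails, differed by 0.56 (SE 0.22), Git1, an adaptor of focal adhesion turnover, by 0.49 (SE 0.24), and Flna, an actin crosslinker that binds beta tails, by 0.26 (SE 0.14).

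Among partners of laminin in the basement membrane, 7 of 17 tested genes had a point estimate above 0 (median -0.042), and 0 were at an unadjusted p under 0.05 in either direction. Smoc1, a calcium-binding matrix protein, differed by -0.61 (SE 0.27) and its relative Smoc2 by -0.41 (SE 0.27). Bcam, a receptor for laminins with the alpha 5 chain, differed by 0.43 (SE 0.22), and the syndecan Sdc1 by -0.24 (SE 0.22). Among other integrin ligands, 17 of 25 tested genes had a point estimate above 0 (median 0.076), with 3 higher and 2 lower at an unadjusted p under 0.05. Over all genes tested, 4.08% were higher and 4.18% lower at that level. Col2a1, the cartilage collagen bound by collagen receptor integrins, averaged 4.88 ± 0.22 in ventral and 7.57 ± 0.62 in dorsal tissue (SD, n = 4). It differed by -2.69 (SE 0.31, adjusted p = 0.0717 in limma), and without the replicate block it passed (adjusted p = 0.0222). Vcam1, the counter-receptor of Itga4, differed by -0.55 (SE 0.20). Fbln5, an elastic fibre protein with an RGD site, differed by 1.46 (SE 0.41) and the fibrillar collagen gene Col1a2 by 0.60 (SE 0.16). The third ligand on the ventral side, named after its value was seen, was the Itga9 ligand Tnc, at 0.82 (SE 0.31).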

How the data were processed

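Per the submitters' processing notes, the deposited log2 intensities come from RMA in Affymetrix Expression Console, whose versions and array definition are not given in the sources used here. RMA equalises the arrays, so a difference is relative to other genes on the array. Per the labels' protocols, picogram amounts of total RNA were amplified before labelling, which can add spread. Of 25429 rows, 24675 had 1 symbol in the platform table, and the other 754 were not analysed here. Genes above the array median on at least 4 of 8 arrays (12416) were fitted with limma 3.58.1 in R 4.3.3 (lmFit, eBayes with trend and robust estimation), with tissue and the replicate number as a fixed block, two-sided, with Benjamini-Hochberg adjustment over all genes tested and a threshold of 0.05. The fit was tested on simulated data. The differences planted there were larger than any that the integrin and laminin genes showed, so power for differences of their size was not tested. After subtracting tissue means, arrays that share a number correlated across genes at r = 0.107, 0.029, 0.022 and 0.12, so the data give little sign of pairing, and the block rests on the labelled origin of both tissues in the same embryos. No batch is given in the labels. With 4 arrays a tissue, precision is limited by their number.

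All 36 genes are accounted for. Values on every array are given for those with an unadjusted p under 0.05 or tissues that do not overlap, and for Itgb1, Lamb1 and Lamc1. Itgb8 was shown in full, and values by replicate number of other genes were added, after their values were seen. From each list of partner genes, the 4 with the smallest p are named. The members and lists were chosen with earlier results of these data known. Marker and partner lists are described by counts and means, without a test of the list. Alternatives covered the block, the filter, the scaling, the variance model, array weights and leaving out arrays.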

Additional observations from a re-analysis of the deposited data

Results flagged for a closer look

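In 5 of the 72 sets of 4 arrays looked at (36 genes in each tissue), the highest or lowest array stood apart from the other 3 by more than Dixon's 95% critical value. Chance alone gives about 1 in 20 such sets. In 4 of the 5 the array was ventral replicate 2. It was the highest for Lamc1 at 8.23 (7.41 to 7.48 on the other ventral arrays), for Itga11 at 4.04 (3.65 to 3.71) and for Itgad at 2.99 (2.59 to 2.66), and the lowest for Lama1 at 3.89 (4.11 to 4.15). Itga8 was high on dorsal replicate 3 at 3.86 (3.29 to 3.38 on the other dorsal arrays). The cause was not tested, and Itgad lay under the array median throughout.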

How the results depend on the processing

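Over 20 alternatives, 0 integrin or laminin genes passed the adjusted threshold in any. Of 428 member differences recomputed, 390 kept their direction and 38 turned, all 38 in 10 genes whose main difference was within -0.12 to 0.21. The other 12 genes, among them Itga11, Itga3, Lama4, Lamb1, Lama2, Itgb8 and Lamc1, kept their direction throughout. With no replicate block, and with the replicate block as a random effect, 4 genes of all tested passed, and 10 with the filter at the 75th percentile. With 1 array or replicate number left out, 0 to 20 passed: 9 without number 1, 8 without dorsal replicate 1, 9 without dorsal replicate 4, 20 without ventral replicate 1 and 0 in the others. The count of members at an unadjusted p under 0.05 was 1 with the 75th percentile filter, 5 without trend and robust estimation, 5 with array weights, and 1 to 4 with 1 array or number left out. Non-overlapping members numbered 2 to 5 with 1 replicate number left out, fewer arrays making this easier by construction. Array weights turned Itga9 to -0.033, and centring turned Lamb2 to -0.00051. Leaving out 1 array or number gave -0.071 to 0.67 for Itga6, -0.050 to 0.11 for Itga7, -0.25 to 0.071 for Itga5, -0.22 to 0.26 for Itgav, -0.46 to 0.20 for Itga4, -0.35 to 0.27 for Itga9, -0.058 to 0.18 for Itgb1, -0.033 to 0.29 for Itgb5, -0.13 to 0.072 for Lama1 and -0.17 to 0.13 for Lamb2. The cause of these turns was not tested. The median over the 22 genes stayed between 0.082 and 0.25, while that of the adaptors ran from -0.058 to 0.073, that of the basement membrane partners from -0.080 to 0.035, and that of the other ligands from 0.0053 without ventral replicate 2 to 0.30 with the 75th percentile filter. Itga11, Itga3, Itga4, Itga8, Itgb3, Itgb4 and Lama5 had values near or under the array medians, where background may compress a difference, which was not tested.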
